A study of Mus musculus with 6 samples.

Results

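The genes described here are 37 genes of the core autophagy machinery, covering its initiation, its conjugation reactions and its cargo receptors, in the mouse cell line Ba/F3. They were chosen by name and function and not by a threshold on their values, although earlier results of these data were known when they were chosen. All 37 names matched 1 row each among the 57010 gene IDs of the deposited table. Messenger RNA was measured in 3 libraries of cells overexpressing the TPR-FGFR1 fusion and in 3 libraries of cells carrying an empty vector, whose genotype is labelled WT. The cells that express the fusion were infected with lentivirus and kept for 6 days in puromycin at 5 µg/ml, and it is not given whether the empty vector cells were selected likewise. The promoter of the vector, the presence of interleukin-3 in the medium, and whether a population or a single clone was used are also not given in the sources used here. No label says that the replicates were separate cultures, so the p-values below rest on library-to-library spread alone, and that spread may be technical.

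Ba/F3 is a haematopoietic line that normally depends on interleukin-3 and is used to study oncogenic kinases, and TPR-FGFR1 joins the coiled coils of a nuclear pore protein to the kinase of a fibroblast growth factor receptor. Autophagy encloses cytoplasm in a double membrane and delivers it to lysosomes. The ULK kinase complex starts the process when nutrients or growth factors are short, and the complex around the lipid kinase VPS34 then marks the growing membrane with phosphatidylinositol 3-phosphate. Conjugating enzymes couple small ubiquitin-like proteins of the ATG8 family (the LC3 and GABARAP proteins) to the lipid of that membrane, and cargo receptors bind them. Much of this machinery is regulated through phosphorylation and protein turnover, which mRNA levels do not show.

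Values are TPM, a measure of transcript abundance scaled by gene length and by each library's own total, so that levels can be compared between genes. Fold changes are differences of log2(TPM + 1), TPR-FGFR1 minus empty vector, with their standard error (SE), a scale on which changes of low genes come out smaller than their ratio of TPM. A gene was tested if it averaged at least 1 TPM over the 6 libraries, and called higher or lower at a limma adjusted p under 0.05 over the 12862 genes tested. Read numbers cannot be had from TPM, so the depth is unknown and counting error is not given.

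Of the 37 genes, 36 were tested, 6 rose and 2 fell in TPR-FGFR1 cells. The background was close to this: 10.2% of all tested genes rose and 10.0% fell, so the share of autophagy genes called, 22.2%, was near the 20.2% of all tested genes. The rises were in the kinase gene Ulk2, the lipid-binding gene Wipi1, the ATG8 family genes Map1lc3b, Gabarap and Gabarapl1, and the cargo receptor gene Tax1bp1. The falls were in Atg13, which encodes the regulatory subunit of the ULK complex, and Sqstm1, which encodes the cargo receptor p62. Every change was small, with ratios of mean TPM between 0.685 and 1.80, and 0 of the 36 genes changed 2-fold or more. In bulk RNA, a change in every cell and a change in some of the cells cannot be told apart. The median log2 fold change of the 36 genes was −0.0037, beside 0.019 over all tested genes. At an unadjusted limma p under 0.05, 7 of the 36 were higher and 6 lower, beside 2558 and 2477 of the 12862 genes tested. The groups did not overlap for 15 of the 36 genes (41.7%), with 8 higher and 7 lower, beside 22.6% higher, 20.8% lower and 43.4% in all among all tested genes. The levels ranged from 3.80 TPM for Atg14 to 662 TPM for Tax1bp1, averaged over the 6 libraries, with a median of 21.6 TPM.

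**Figure D1:**
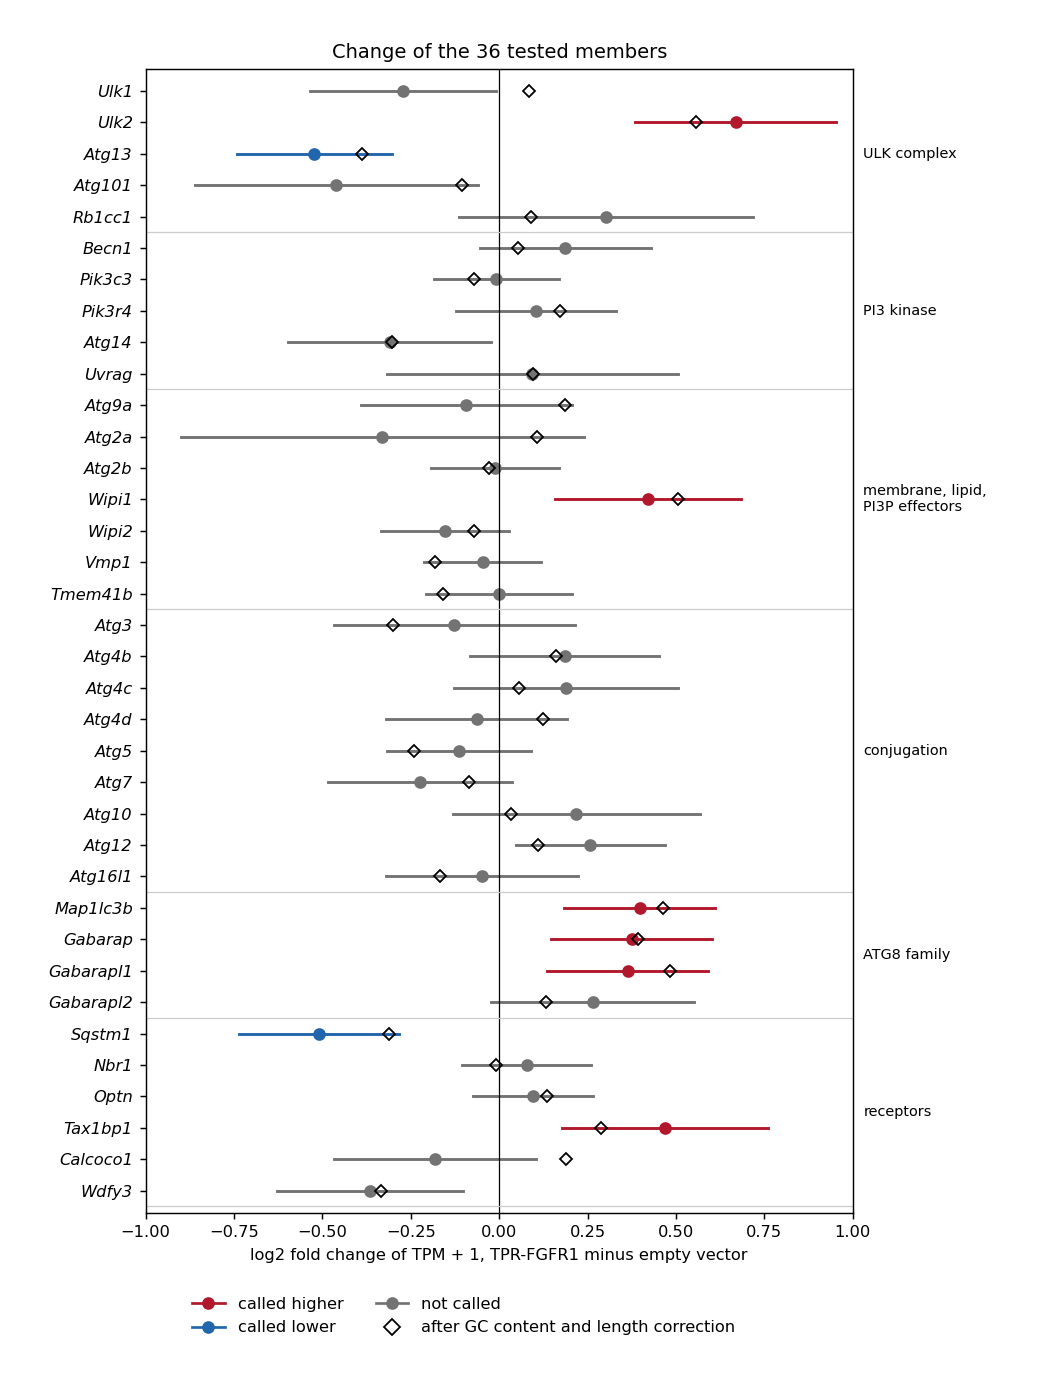
Log2 fold change of TPM + 1 (x axis, TPR-FGFR1 minus empty vector, 3 libraries each) for the 36 tested genes, grouped by role, with 95% confidence intervals from limma as lines and the value corrected for GC and length as open diamonds. The 6 rises and 2 falls are spread over 4 of the 6 roles, and no gene reaches a change of 1 on this scale.

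The 6 libraries were not alike within their groups. Over all tested genes, the correlation of TPR-FGFR1 replicate 3 was r = 0.963 and 0.962 with its fellow replicates 1 and 2, and r = 0.966 with each empty vector library. GC-rich genes were shifted downwards against GC-poor genes in some libraries: between the 20% of tested genes richest and poorest in GC, the median deviation from the empty vector mean differed by −0.694 in TPR-FGFR1 replicate 1, −0.861 in replicate 2 and −0.0694 in replicate 3 (log2). The part of this trend in the results was not tested. Values corrected for GC and length are drawn in the plots of fold changes, and given in the text for some genes only. Fgfr1 read 0.70, 0.58 and 1.26 TPM in TPR-FGFR1 libraries and 0.02, 0.04 and 0.05 TPM in empty vector libraries, low in both groups. Tpr, the other gene of the fusion, was not higher in TPR-FGFR1 libraries. It read 142.9, 145.1 and 125.0 TPM there and 144.2, 155.2 and 143.7 TPM in empty vector libraries. All 6 general haematopoietic markers were present, of which 2 were higher and 3 lower in every TPR-FGFR1 library than in every empty vector library. Of 4 markers of interleukin-3 dependent progenitors, Kit was listed at 0 and the other three summed to between 251 and 336 TPM in TPR-FGFR1 libraries and between 379 and 412 TPM in empty vector libraries, with no overlap for any of them. The largest ratio between the groups among these was that of Il3ra, a subunit gene of the interleukin-3 receptor, at 2.42, 2.00 and 4.24 TPM in TPR-FGFR1 libraries and 12.6, 6.41 and 7.23 TPM in empty vector libraries. Erythroid markers summed to between 182 and 388 TPM in TPR-FGFR1 libraries and between 224 and 303 TPM in empty vector libraries, and Hba-a1 alone ranged from 39.5 to 177 TPM in TPR-FGFR1 libraries, with replicate 3 the highest, and from 74.2 to 153 TPM in empty vector libraries. The part of these markers in the results was not tested. Of 8 B cell markers, against the B lymphocyte label, only Cd79b averaged 1 TPM or more. Of 6 macrophage and granulocyte markers, 3 averaged 1 TPM or more, and 2 were lower in every TPR-FGFR1 library than in every empty vector library. These were Csf1r, at 0.08 TPM or less in every library, and Itgam. The highest TPR-FGFR1 library for Itgam, at 20.96 TPM, was just below the lowest empty vector library, at 21.04 TPM. The 6 summed to between 84.0 and 90.4 TPM in TPR-FGFR1 libraries and between 81.4 and 89.3 TPM in empty vector libraries. Markers of fibroblasts summed to between 0.04 and 0.08 TPM in TPR-FGFR1 libraries and between 0.04 and 0.68 TPM in empty vector libraries.

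Leaving out TPR-FGFR1 replicate 3 gave 11 rises and 7 falls among the 36 genes, including all 8 genes called with it, where 26.4% of all tested genes rose and 23.4% fell. Leaving out TPR-FGFR1 replicate 1, or any of the 3 empty vector replicates, left 0 of the 8 calls, and leaving out TPR-FGFR1 replicate 2 left only the fall of Sqstm1. In each of these limma fits, all 8 genes had an unadjusted p under 0.05 in the same direction. The fits reuse libraries on which the genes were called, so this is no independent support. After GC and length correction, all 8 calls were kept in the same direction, and 7 genes rose and 5 fell, the added ones being Optn among the rises and Atg3, Atg5 and Wdfy3 among the falls, where 16.4% of all tested genes rose and 15.4% fell. In 10 of the 36 genes, TPR-FGFR1 replicate 3 lay on the other side of the empty vector mean from both other TPR-FGFR1 replicates. The same count over all tested genes was not made. None of the 8 called genes was among the 10, but a gene so split can hardly be called with 3 libraries a group.

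**Figure D2:**
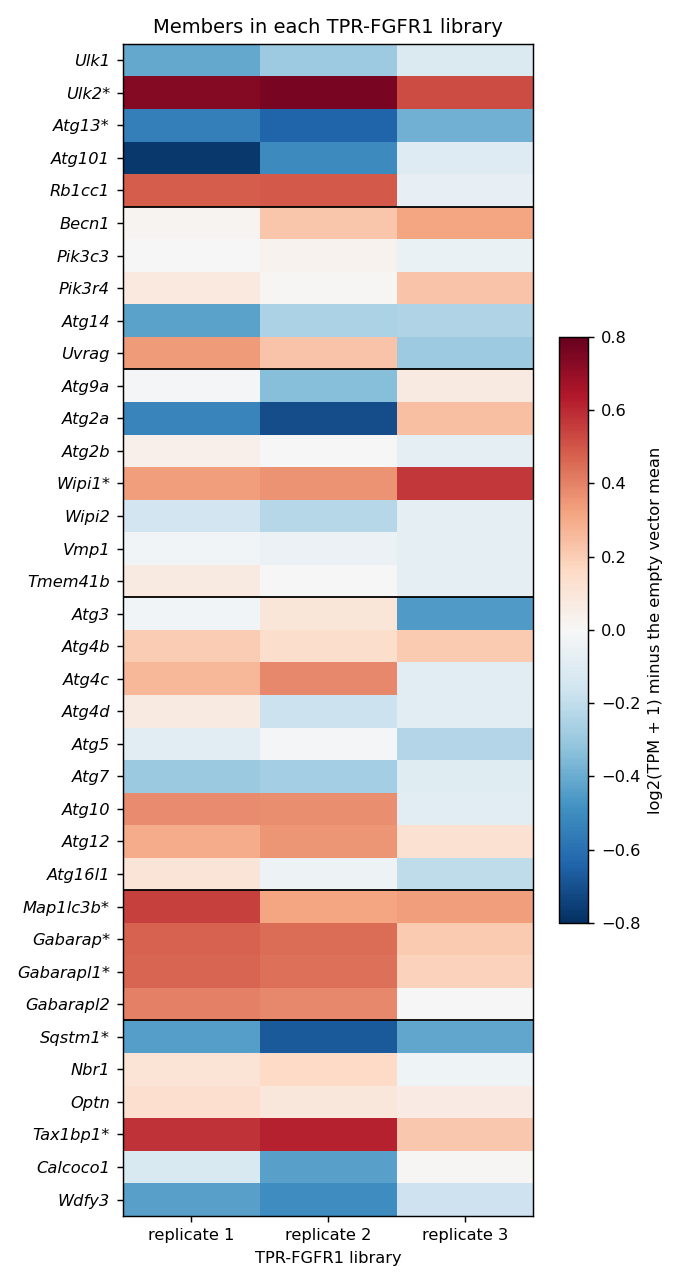
Log2(TPM + 1) of the 36 tested genes in each of the 3 TPR-FGFR1 libraries, minus the mean of the 3 empty vector libraries (colour scale), with roles separated by lines and the 8 called genes marked by an asterisk. The called genes keep 1 colour across their row, as a call largely requires. Rb1cc1, Uvrag, Atg2a, Atg4c and Atg10 are among the rows in which replicate 3 has the other sign.

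Within the ULK complex, which starts autophagy, the members went in different directions. Ulk2, one of its alternative catalytic kinases, stood at 5.40, 5.51 and 4.52 TPM in TPR-FGFR1 libraries, against 2.87, 2.63 and 3.07 TPM in empty vector libraries. The groups did not overlap, and every TPR-FGFR1 library was above the highest empty vector library. Ulk2 had the largest rise of the 36 genes, with a ratio of mean TPM of 1.80 and a log2 fold change of 0.67 (SE 0.120, limma adjusted p = 0.0155). Ulk1, the other kinase and the better studied of the pair, stood at 4.73, 5.24 and 6.04 TPM in TPR-FGFR1 libraries, against 6.74, 6.78 and 6.36 TPM in empty vector libraries. All TPR-FGFR1 libraries were below all empty vector libraries, but the difference did not pass the test (log2 fold change −0.27, SE 0.111, limma adjusted p = 0.117). After GC and length correction the Ulk1 log2 fold change was 0.084 (limma adjusted p = 0.550), so that even its direction depended on the correction.

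Atg13, whose product holds the kinase in the complex, fell. It read 15.3, 14.3 and 17.3 TPM in TPR-FGFR1 libraries, against 22.6, 22.2 and 23.9 TPM in empty vector libraries. The groups were well apart, and the log2 fold change of −0.52 (SE 0.0926, limma adjusted p = 0.0152) was the largest fall of the 36 genes. Atg101, the partner that stabilises Atg13, averaged 7.52 ± 2.04 TPM in TPR-FGFR1 cells and 10.5 ± 0.356 TPM in empty vector cells (SD, n = 3 each) and did not pass the test (log2 fold change −0.46, limma adjusted p = 0.0932). The Atg101 change was −0.64 and called without TPR-FGFR1 replicate 3 (limma adjusted p = 0.00499), and −0.11 and not called once corrected for GC and length (limma adjusted p = 0.489). Rb1cc1, which encodes the scaffold FIP200, ranged from 29.1 to 43.3 TPM in TPR-FGFR1 libraries and from 27.8 to 35.8 TPM in empty vector libraries, which overlap. Its log2 fold change of 0.30 was 0.49 and called without TPR-FGFR1 replicate 3 (limma adjusted p = 0.0190), and 0.090 and not called once corrected for GC and length.

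The complex around the lipid kinase VPS34, which is encoded by Pik3c3, gave no limma call among its 5 genes, of which 1, Atg14, had an unadjusted p under 0.05. Becn1, the gene of its core subunit beclin 1, averaged 85.5 ± 8.76 TPM in TPR-FGFR1 cells and 74.8 ± 5.66 TPM in empty vector cells (SD, n = 3 each), with a log2 fold change of 0.19 that was 0.054 once corrected for GC and length. Pik3c3 stood at 15.9 ± 0.491 TPM in TPR-FGFR1 cells and 16.0 ± 0.340 TPM in empty vector cells (SD, n = 3 each), and its 95% interval of the log2 fold change was −0.18 to 0.17. Pik3r4, the gene of the regulatory kinase subunit, and Uvrag, whose product takes the place of Atg14 in the complex that acts on endosomes, had log2 fold changes of 0.10 and 0.093. Atg14, whose product directs the complex to sites where autophagosomes form, was the lowest of the 36 genes in level. It averaged 3.28 ± 0.307 TPM in TPR-FGFR1 cells and 4.31 ± 0.435 TPM in empty vector cells (SD, n = 3 each), with no overlap between the groups and a limma adjusted p = 0.108.

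Among the 7 genes for membrane supply, lipid transfer and reading of phosphatidylinositol 3-phosphate, only Wipi1 was called. Wipi1, which encodes a protein that binds this lipid, stood at 14.5, 14.8 and 17.2 TPM in TPR-FGFR1 libraries, against 10.5, 10.8 and 12.8 TPM in empty vector libraries. The groups did not overlap, and here TPR-FGFR1 replicate 3 was the highest library. This made a log2 fold change of 0.42 (SE 0.111, limma adjusted p = 0.0408). Its relative Wipi2, whose product recruits the conjugation machinery through ATG16L1, averaged 27.0 ± 1.42 TPM in TPR-FGFR1 cells and 30.1 ± 0.956 TPM in empty vector cells (SD, n = 3 each) and was not called (limma adjusted p = 0.180). Atg9a, the gene of the scramblase carried by the seed vesicles, and Atg2b, one of a pair of lipid transfer genes, had log2 fold changes of −0.093 and −0.011. The other of that pair, Atg2a, ranged from 3.49 to 7.70 TPM in TPR-FGFR1 libraries, so widely that the values in empty vector libraries, 6.14 to 6.76 TPM, lay inside that range. The scramblase genes of the endoplasmic reticulum, Vmp1 and Tmem41b, differed little in mean, with Vmp1 at 141 ± 2.75 TPM in TPR-FGFR1 cells and 146 ± 6.71 TPM in empty vector cells (SD, n = 3 each). The Vmp1 95% interval of the log2 fold change was −0.21 to 0.12, and that of Tmem41b −0.21 to 0.21. Once corrected for GC and length, the changes of Vmp1 and Tmem41b were −0.18 and −0.16, neither called with all libraries, and Vmp1 was called lower at −0.25 (limma adjusted p = 0.0324) with that correction and without TPR-FGFR1 replicate 3.

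Of the 9 conjugation genes, 0 were called by limma and 1, Atg12, had an unadjusted p under 0.05, with log2 fold changes between −0.22 for Atg7 and 0.26 for Atg12. Without TPR-FGFR1 replicate 3, Atg4c, Atg10 and Atg12 were called higher, with log2 fold changes of 0.32, 0.37 and 0.33, but once corrected for GC and length these 3 changes were 0.057, 0.034 and 0.11, none of them called with or without that library. The same correction called Atg3 and Atg5 lower, at −0.30 and −0.24. It left Atg7 at −0.084. Atg7 encodes the E1-like enzyme that activates both ubiquitin-like proteins, and averaged 14.4 ± 1.17 TPM in TPR-FGFR1 cells and 17.0 ± 1.97 TPM in empty vector cells (SD, n = 3 each). Atg3 encodes the E2-like enzyme that passes ATG8 proteins to lipid. It ranged from 31.2 to 46.3 TPM in TPR-FGFR1 libraries and from 42.5 to 44.8 TPM in empty vector libraries. Atg10 is the E2-like enzyme for Atg12, the ubiquitin-like protein that is joined to Atg5 and, with Atg16l1, forms the ligase of the last step. Atg12 averaged 21.7 ± 1.88 TPM in TPR-FGFR1 cells and 17.95 ± 0.534 TPM in empty vector cells (SD, n = 3 each), with groups that did not overlap and a limma adjusted p = 0.0808. Atg5 and Atg16l1 had log2 fold changes of −0.11 and −0.048. The protease genes Atg4b, Atg4c and Atg4d, whose products trim ATG8 proteins before conjugation and free them afterwards, averaged 50.5, 8.60 and 8.22 TPM in TPR-FGFR1 cells and 44.6, 7.35 and 8.63 TPM in empty vector cells. Exons of Atg4d share 1405 bases with the opposite strand gene Kri1, at 71.8 TPM over the 6 libraries, and since the strand setting of the counting is not given, the level of Atg4d is uncertain. The same holds for Becn1, whose exons share 3104 bases with the opposite strand gene Cntd1, at 5.92 TPM.

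Of the 4 ATG8 genes tested, 3 rose, where 10.2% of all tested genes rose, and the median log2 fold change of the 4 was 0.37. All 3 lost their calls when the replicate number was fitted as a block, and when genes of low level were not filtered out. Map1lc3b, which encodes LC3B, the usual protein marker of autophagosomes, stood at 106, 90.1 and 91.5 TPM in TPR-FGFR1 libraries, against 69.3, 71.3 and 76.5 TPM in empty vector libraries. The lowest TPR-FGFR1 library was above the highest empty vector library. This made a log2 fold change of 0.40 (SE 0.0900, limma adjusted p = 0.0275). Gabarap stood at 237, 233 and 197 TPM in TPR-FGFR1 libraries, against 161, 175 and 178 TPM in empty vector libraries. It was the most abundant of the family in every library, and replicate 3 was the lowest of the TPR-FGFR1 libraries. Gabarap rose by a log2 fold change of 0.37 (SE 0.0961, limma adjusted p = 0.0380).

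Gabarapl1, a close relative of Gabarap, stood at 137, 135 and 113 TPM in TPR-FGFR1 libraries, against 104, 96.7 and 97.1 TPM in empty vector libraries. The groups did not overlap, and Gabarapl1 rose by a log2 fold change of 0.36 (SE 0.0965, limma adjusted p = 0.0415). Gabarapl2, which encodes GATE-16, stood at 72.8, 71.7 and 55.0 TPM in TPR-FGFR1 libraries, against 53.8, 57.9 and 52.7 TPM in empty vector libraries. TPR-FGFR1 replicates 1 and 2 were above the empty vector libraries and replicate 3 lay among them. The log2 fold change of 0.26 (SE 0.121, limma adjusted p = 0.151) did not pass the test, and was 0.39 (limma adjusted p = 0.00388) without TPR-FGFR1 replicate 3. Once corrected for GC and length, it was 0.13 (limma adjusted p = 0.205) with all libraries and 0.20 (limma adjusted p = 0.0374) without that replicate. Map1lc3a, which encodes LC3A, was listed at 0 in all 3 TPR-FGFR1 libraries and at 0.00, 0.00 and 0.19 TPM in empty vector libraries, and was not tested.

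The sum of the 5 ATG8 genes was 553, 530 and 457 TPM in TPR-FGFR1 libraries, against 388, 401 and 404 TPM in empty vector libraries. This sum and the shares below were chosen after the values were seen and are a description, without a test. Map1lc3b, Gabarap and Gabarapl1, each already called higher, made up most of the sum, so it gives no support beyond their calls. The make-up of that sum was alike in both groups. Gabarap made up 43.4% ± 0.556 of it in TPR-FGFR1 cells and 43.0% ± 1.40 in empty vector cells (SD, n = 3 each), and Gabarapl1 25.0% ± 0.452 in TPR-FGFR1 cells and 25.0% ± 1.61 in empty vector cells. Map1lc3b made up 18.7% ± 1.57 in TPR-FGFR1 cells and 18.2% ± 0.640 in empty vector cells, and Gabarapl2 12.9% ± 0.766 in TPR-FGFR1 cells and 13.8% ± 0.705 in empty vector cells. Each of these 4 shares differed by less than 1 percentage point between the groups. The direction of the log2 fold change of all 4 tested genes was positive under all 18 alternative settings. These settings reuse the libraries on which 3 of the 4 were called, so this is no independent support. Short stretches of 75 bases of Map1lc3b and Gabarapl2 transcripts also occur in processed pseudogenes, each listed at 0.333 TPM or less over the 6 libraries. Map1lc3b also shares such stretches with the expressed genes Dgka, Eapp, D1Ertd622e, Gm4419 and Trim6, at 50.3, 25.3, 19.4, 3.91 and 1.52 TPM. With each of these genes it shares 3 to 13 stretches, at most 0.320% of its longest transcript. Map1lc3b and Gabarapl1 also overlap low genes on the opposite strand, Zcchc14 at 0.542 TPM and 1700101I11Rik at 0.313 TPM.

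Because 3 of the 4 tested ATG8 genes rose, their promoters are shown beside that of Atg3, the gene of the enzyme that conjugates their products. Atg3 was not called, except as lower once corrected for GC and length. Its window is not typical of the genes that were not called. Sequences are the 250 bases before the RefSeq start on build GRCm38.p6, read 5′ to 3′ on the gene's strand, and 30 of the 37 genes had such a window in the table used. Capitals mark matches, on either strand, to the E-box CACGTG, the motif TCACGTG (the core of sites bound by TFEB, a transcription factor of lysosome and autophagy genes, which overlaps the E-box), the FOXO core TGTTTAC, the ATF4 element TGATGCA and the ETS core CCGGAAG.
Map1lc3b, chr8:121590188-121590437, plus strand: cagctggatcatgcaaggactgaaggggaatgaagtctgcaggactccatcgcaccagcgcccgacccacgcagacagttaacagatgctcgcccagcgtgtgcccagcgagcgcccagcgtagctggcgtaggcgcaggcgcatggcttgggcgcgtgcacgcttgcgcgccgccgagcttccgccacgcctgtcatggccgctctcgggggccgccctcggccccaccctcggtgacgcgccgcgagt
Gabarap, chr11:69991120-69991369, plus strand: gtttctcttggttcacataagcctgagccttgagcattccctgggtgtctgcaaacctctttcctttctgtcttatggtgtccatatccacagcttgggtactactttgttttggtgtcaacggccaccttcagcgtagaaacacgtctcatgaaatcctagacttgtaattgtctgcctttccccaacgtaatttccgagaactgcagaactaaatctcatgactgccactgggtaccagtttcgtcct
Gabarapl1, chr6:129532942-129533191, plus strand: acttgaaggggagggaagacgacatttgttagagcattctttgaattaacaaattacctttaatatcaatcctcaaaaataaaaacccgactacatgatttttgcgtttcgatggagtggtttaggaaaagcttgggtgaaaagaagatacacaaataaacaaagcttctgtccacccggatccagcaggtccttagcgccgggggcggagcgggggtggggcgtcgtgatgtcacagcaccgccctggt
Gabarapl2, chr8:111940453-111940702, plus strand: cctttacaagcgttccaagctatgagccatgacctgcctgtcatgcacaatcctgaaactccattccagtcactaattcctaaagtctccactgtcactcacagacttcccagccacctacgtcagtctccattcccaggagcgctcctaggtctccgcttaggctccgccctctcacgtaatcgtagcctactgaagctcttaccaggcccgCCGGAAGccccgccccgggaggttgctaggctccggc
Atg3, chr16:45158579-45158828, plus strand: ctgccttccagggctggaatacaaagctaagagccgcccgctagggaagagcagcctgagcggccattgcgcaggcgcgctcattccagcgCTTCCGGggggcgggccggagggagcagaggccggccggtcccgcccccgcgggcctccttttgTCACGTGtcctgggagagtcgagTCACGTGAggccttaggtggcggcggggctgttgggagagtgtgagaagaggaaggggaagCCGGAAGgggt

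None of these letters was found in the Map1lc3b, Gabarap and Gabarapl1 windows, and the Gabarapl2 window held a single ETS core, which opened at position −37 from the start. The Atg3 window held a pair of E-boxes, opening at −94 and −71, each within a match to TCACGTG, and ETS cores at −159 and −11. These were the most matches in any window of the 30 genes, and most windows of genes that were not called held none. Over the 35 windows of the 30 genes, the E-box was found in 3, beside 6.02% of all 32851 windows of the same length in the table. TCACGTG was found in 2 (3.13% of all windows), the FOXO core in 0 (3.17%), the ATF4 element in 2 (2.68%) and the ETS core in 4 (6.91%). The E-box windows were those of Atg3, Atg5 and Atg7, all conjugation genes that were not called. Of the 8 called genes, none had a match in any of its windows, which says only that these letters are not in these 250 bases.

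Cargo receptors bind both ubiquitin or other labels on cargo and ATG8 proteins on the membrane. The most abundant of them went opposite ways. Sqstm1, which encodes p62, itself a substrate of autophagy and also a signalling scaffold, stood at 419, 357 and 427 TPM in TPR-FGFR1 libraries, against 541, 591 and 576.5 TPM in empty vector libraries. The highest TPR-FGFR1 library was more than 100 TPM below the lowest empty vector library. Sqstm1 thus had a log2 fold change of −0.51 (SE 0.0951, limma adjusted p = 0.0170). Corrected for GC and length, it was −0.31 (limma adjusted p = 0.0102). Exons of Sqstm1 share 580 bases with the opposite strand gene Mrnip, which averaged 5.13 TPM.

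Tax1bp1, whose product binds ubiquitinated cargo and is known as a regulator of NF-κB signalling, stood at 826, 847 and 641 TPM in TPR-FGFR1 libraries, against 526, 551 and 583 TPM in empty vector libraries. The groups did not overlap, with TPR-FGFR1 replicate 3 the nearest to the empty vector libraries. Tax1bp1 rose by a log2 fold change of 0.47 (SE 0.123, limma adjusted p = 0.0400). Corrected for GC and length, it was 0.29 (limma adjusted p = 0.00826). The longest transcript of Tax1bp1 has a GC content of 39.6% and that of Sqstm1 54.0%.

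Nbr1, a receptor related to p62, averaged 54.7 ± 3.74 TPM in TPR-FGFR1 cells and 51.7 ± 0.611 TPM in empty vector cells (SD, n = 3 each) and was not called. Optn, the gene of optineurin, a receptor for damaged mitochondria and bacteria, averaged 57.0 ± 1.36 TPM in TPR-FGFR1 cells and 53.3 ± 2.49 TPM in empty vector cells (SD, n = 3 each), with groups that did not overlap and a limma adjusted p = 0.349. The gap between the Optn groups was small, with the lowest TPR-FGFR1 library just above the highest empty vector library. Optn was called higher once corrected for GC and length (log2 fold change 0.13, limma adjusted p = 0.0419). Calcoco1, a receptor gene for the endoplasmic reticulum, had a log2 fold change of −0.18, which was 0.19 once corrected for GC and length, with limma adjusted p-values of 0.298 and 0.0842. Wdfy3, the gene of the large adaptor ALFY that links aggregates to the machinery, averaged 10.3 ± 1.42 TPM in TPR-FGFR1 cells and 13.5 ± 0.604 TPM in empty vector cells (SD, n = 3 each). Its groups did not overlap, and its limma adjusted p of 0.0581 was the smallest among the 28 genes not called. Wdfy3 was called lower after the correction (0.0411) and without TPR-FGFR1 replicate 3 (0.00431).

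**Figure D3:**
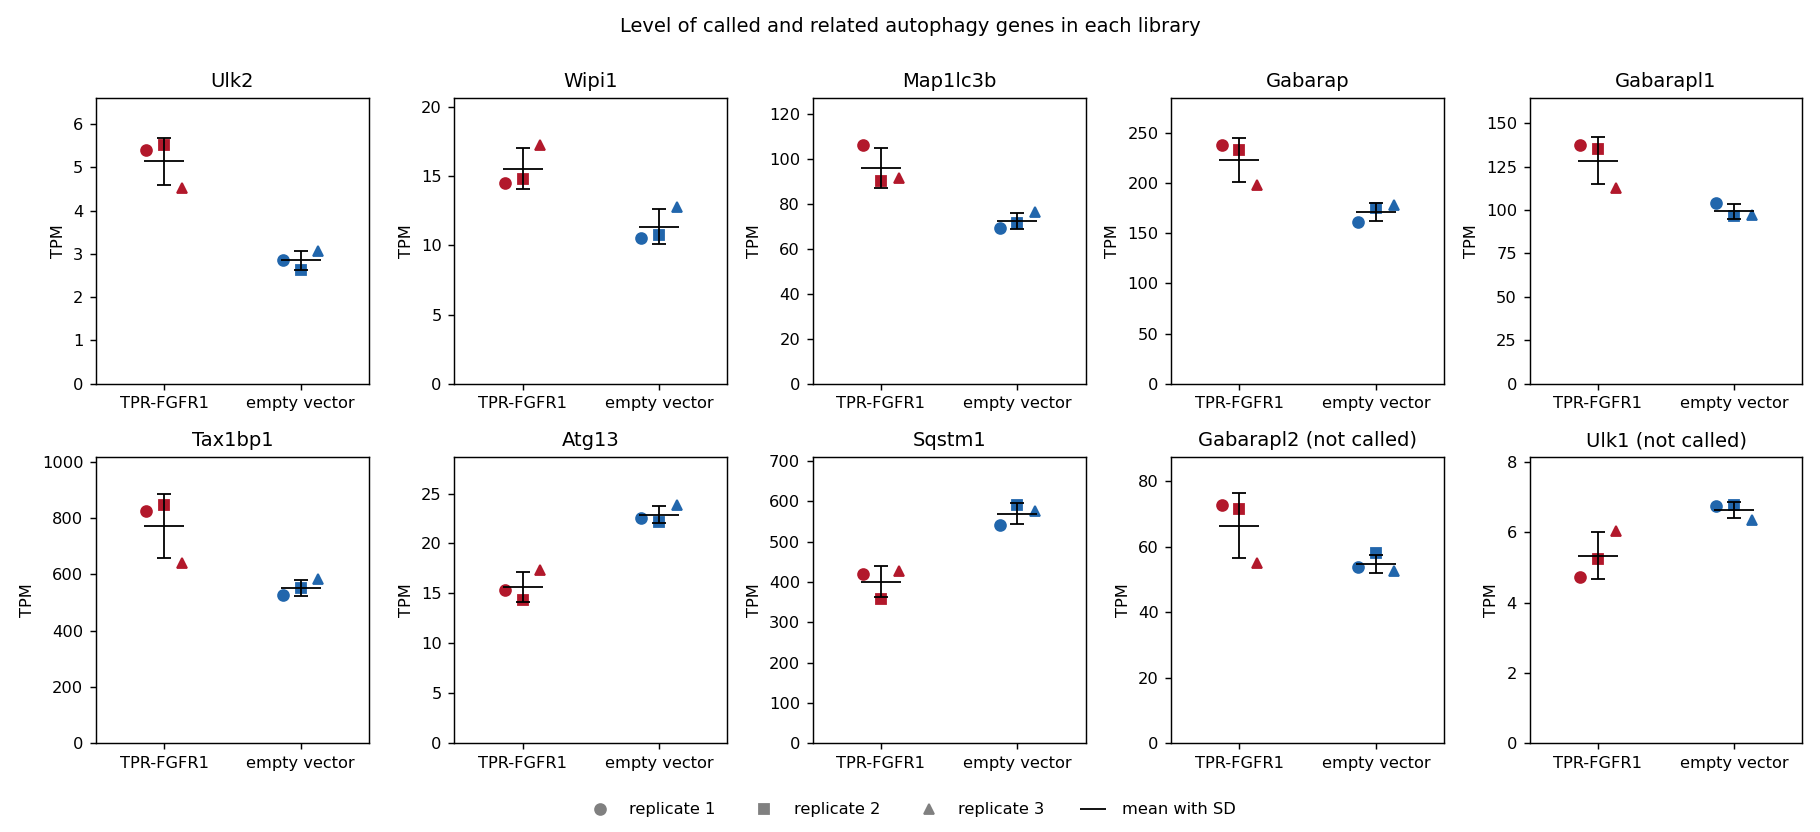
TPM (y axes, from 0) in each library for the 8 called genes and for Gabarapl2 and Ulk1, with TPR-FGFR1 libraries in red on the left and empty vector libraries in blue on the right of each panel, symbols for replicate numbers, and the mean with SD in black. In the 8 called genes no TPR-FGFR1 library lies within the empty vector range, and TPR-FGFR1 replicate 3 is the lowest of the TPR-FGFR1 libraries for Ulk2, Gabarap, Gabarapl1 and Tax1bp1.

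The balance within pairs of related genes differed between the groups. These ratios, and the share of Tax1bp1 below, were chosen after the values were seen and are given as a description, without a test. They are not corrected for GC and length, and the longest transcripts of Ulk2 and Ulk1 have GC contents of 47% and 57.95%. Corrected log2 fold changes were 0.29 for Tax1bp1, −0.31 for Sqstm1, 0.56 for Ulk2 and 0.084 for Ulk1. The uncorrected values were 0.47, −0.51, 0.67 and −0.27. For Wipi1 and Wipi2 the values were 0.51 and −0.071 corrected, and 0.42 and −0.15 uncorrected. The ratio of Tax1bp1 to Sqstm1 was 1.97, 2.37 and 1.502 in TPR-FGFR1 libraries, against 0.971, 0.932 and 1.01 in empty vector libraries. Both receptors were at about the same level in empty vector cells, whereas in TPR-FGFR1 cells Tax1bp1 was the more abundant in every library. Tax1bp1 made up 59.0% ± 5.01 of the summed TPM of Sqstm1, Nbr1, Optn, Tax1bp1 and Calcoco1 in TPR-FGFR1 cells and 44.2% ± 0.948 in empty vector cells (SD, n = 3 each).

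The ratio of Ulk2 to Ulk1 was 1.14, 1.05 and 0.748 in TPR-FGFR1 libraries, against 0.426, 0.388 and 0.483 in empty vector libraries. The kinase genes were thus at similar levels in TPR-FGFR1 cells, and Ulk1 was the more abundant in every empty vector library and in TPR-FGFR1 replicate 3. The ratio of Wipi1 to Wipi2 was 0.539, 0.580 and 0.606 in TPR-FGFR1 libraries, against 0.348, 0.347 and 0.440 in empty vector libraries. Wipi2 was the more abundant of this pair in all 6 libraries.

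**Figure D4:**
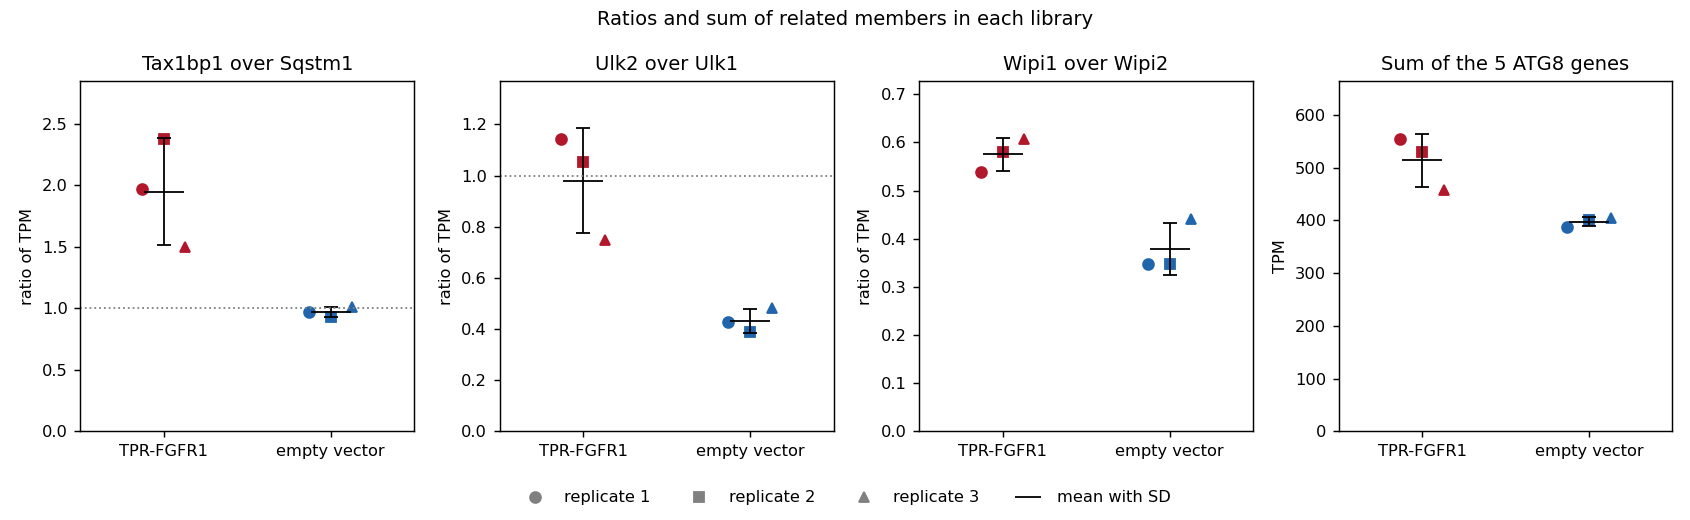
Ratios of TPM for 3 pairs of related genes and the summed TPM of the 5 ATG8 genes (y axes, from 0) in each library, with TPR-FGFR1 on the left and empty vector on the right, the mean with SD in black and a dotted line at a ratio of 1. None of these values is corrected for GC and length. The ratios and the sum were chosen after the values were seen, and most of the sum comes from genes already called higher. The TPR-FGFR1 libraries lie above the empty vector libraries in all 4 panels, and the ratio of Tax1bp1 to Sqstm1 is between 1.502 and 2.37 with the fusion and between 0.932 and 1.01 without it.

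Not being called does not show that a gene was level. For 23 of the 28 genes that were tested and not called, the 95% interval from limma excluded a change of 1.5-fold in either direction on the log2(TPM + 1) scale. The others were Atg101, Rb1cc1, Atg14, Atg2a and Wdfy3, whose intervals reached −0.86, 0.72, −0.60, −0.90 and −0.63. The median GC content of the longest transcript was 51.2% for the 6 rises and 53.4% for the 2 falls, beside 45.4% for all rises and 53.7% for all falls in the table.

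Other genes of the pathway were taken from 5 lists chosen by function, none of which holds any of the 37 genes. Together the 5 lists had 16 calls among 71 tested genes (22.5%), near the 20.2% of all tested genes. Of these calls, leaving out TPR-FGFR1 replicate 1, TPR-FGFR1 replicate 2 or empty vector replicate 1 kept 3, 7 and 5, and leaving out empty vector replicate 2 or 3 kept 0. All 16 had an unadjusted limma p under 0.05 in the same direction in each of these fits, which reuse libraries on which the genes were called. Among 14 further core and regulatory genes, 3 were higher and 2 lower at an unadjusted limma p under 0.05. The counts over all 12862 tested genes were 2558 and 2477. Of the 14, by the call, 2 rose and 0 fell, with a median log2 fold change of 0.036. The larger rise was in Atg4a, the remaining protease of the family of Atg4b to Atg4d. Atg4a averaged 61.0 ± 6.42 TPM in TPR-FGFR1 cells and 29.4 ± 1.34 TPM in empty vector cells (SD, n = 3 each), with a log2 fold change of 1.02 (SE 0.0975, limma adjusted p = 0.00620). It made up 47.4% ± 2.47 of the summed TPM of the 4 protease genes in TPR-FGFR1 cells and 32.8% ± 1.71 in empty vector cells (SD, n = 3 each). This share was also chosen after the values were seen. Trp53inp2, which encodes DOR, a protein that binds ATG8 proteins, averaged 16.5 ± 0.440 TPM in TPR-FGFR1 cells and 11.7 ± 1.57 TPM in empty vector cells (SD, n = 3 each, limma adjusted p = 0.0270).

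Among 15 further receptors for organelles and other cargo, 4 were higher and 2 lower at an unadjusted limma p under 0.05. Of the 15, by the call, 1 rose and 0 fell, with a median log2 fold change of 0.044. It was Ccpg1, a receptor gene for the endoplasmic reticulum, at 46.9 ± 3.85 TPM in TPR-FGFR1 cells and 36.8 ± 2.13 TPM in empty vector cells (SD, n = 3 each, limma adjusted p = 0.0404). Among 13 genes for the fusion of autophagosomes with lysosomes, 2 rose and 2 fell, with a median of −0.16. At an unadjusted limma p under 0.05, 2 of the 13 were higher and 5 lower. The SNARE genes of that step went apart. Stx17, the SNARE of the autophagosome, averaged 25.7 ± 1.99 TPM in TPR-FGFR1 cells and 18.8 ± 1.29 TPM in empty vector cells (SD, n = 3 each, log2 fold change 0.43, limma adjusted p = 0.0242), and its change was 0.27 once corrected for GC and length. Vamp8, its partner on the lysosome, averaged 78.3 ± 5.41 TPM in TPR-FGFR1 cells and 121.9 ± 2.34 TPM in empty vector cells (SD, n = 3 each, log2 fold change −0.63, limma adjusted p = 0.00746). Vps41, a subunit gene of the HOPS tethering complex, averaged 70.1 ± 8.14 TPM in TPR-FGFR1 cells and 45.2 ± 2.46 TPM in empty vector cells (SD, n = 3 each, log2 fold change 0.62, limma adjusted p = 0.0136).

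The list of mTORC1 and AMPK genes, whose kinases restrain and promote the ULK complex, had 5 rises and 3 falls among 19 tested of 23 (42.1% called, beside 20.2% of all tested genes) and a median log2 fold change of 0.083. Deptor, which encodes an inhibitor of mTOR, averaged 8.54 ± 1.47 TPM in TPR-FGFR1 cells and 3.61 ± 0.127 TPM in empty vector cells (SD, n = 3 each, log2 fold change 1.04, limma adjusted p = 0.00822). Prkab2, a regulatory subunit gene of AMPK, averaged 10.8 ± 0.970 TPM in TPR-FGFR1 cells and 5.85 ± 0.142 TPM in empty vector cells (SD, n = 3 each, log2 fold change 0.78, limma adjusted p = 0.00765). Ddit4, which encodes REDD1, a stress-induced inhibitor of mTORC1, averaged 33.7 ± 4.54 TPM in TPR-FGFR1 cells and 74.97 ± 14.4 TPM in empty vector cells (SD, n = 3 each, log2 fold change −1.12, limma adjusted p = 0.00913). Once corrected for GC and length, the Ddit4 log2 fold change was −0.76 (limma adjusted p = 0.00541). Inhibitors of mTORC1 thus stood among both the rises and the falls. Of 10 tested transcription factor genes and their regulators, 0 were higher and 2 lower at an unadjusted limma p under 0.05. The counts over all 12862 tested genes were 2558 and 2477. By the call, 0 of the 10 rose and 1 fell, with a median of −0.13. It was Foxo3, at 24.2 ± 1.25 TPM in TPR-FGFR1 cells and 30.5 ± 0.759 TPM in empty vector cells (SD, n = 3 each, log2 fold change −0.32, limma adjusted p = 0.0307), and −0.20 once corrected for GC and length. The plot of the other genes of the pathway also shows the 6 called genes that are not named here.

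**Figure D5:**
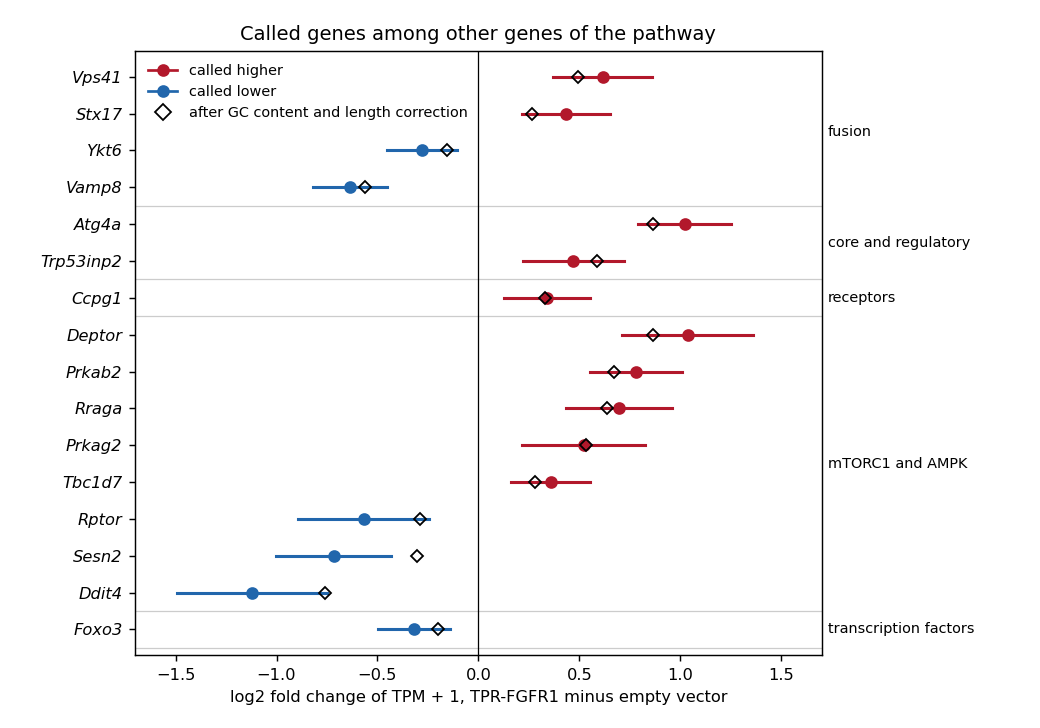
Log2 fold change of TPM + 1 (x axis, TPR-FGFR1 minus empty vector, 3 libraries each) with 95% confidence intervals from limma for the 16 called genes of the 5 further lists, with open diamonds for the value corrected for GC and length. The 10 rises lie between 0.34 and 1.04 and the 6 falls between −1.12 and −0.28.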

How the data were processed

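The authors deposited TPM values for 57010 Ensembl gene IDs in 6 libraries, and each column sums to the same total within rounding. Per the labels' protocols, 1 µg of total RNA was used with a stranded mRNA kit and sequenced as read pairs of 150 bases, while HISAT2, StringTie, fastp and the mouse build GRCm39 are named in the submitters' processing notes. Which versions, which annotation release and which strand setting were used is not given in the sources used here. Columns were matched to samples by name (EV, OE and the replicate number), with 0 columns left over.

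Symbols, GC content and length came from GENCODE M21 (build GRCm38) by gene ID, and 52081 IDs (91.4%) had a symbol. No coordinate was joined to the deposited values. Promoter windows came from RefSeq on GRCm38.p6 by symbol. TPM were analysed as log2(TPM + 1) with a mean of at least 1 TPM, using limma 3.58.1 in R 4.3.3 (lmFit, eBayes with trend, group only) and Benjamini-Hochberg adjustment over 12862 genes. The pipeline was tested on simulated data.

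The 37 genes, the further lists and the tests were chosen with earlier results of these data known. Named with full values were the called genes, Ulk1, the ATG8 family and Sqstm1, and up to 3 called genes of smallest adjusted p in each further list. Alternatives were other pseudocounts, filters, scalings and variance models, library weights, the replicate number as a block, a spline correction for GC content and length (4 degrees of freedom each, 321 genes without GC values left out), and leaving out each library.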

Additional observations from a re-analysis of the deposited data

How the results depend on the processing

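TPM gives no depth, and 3 libraries a group leave the calls dependent on single libraries. With any 1 library left out, the 36 tested autophagy genes had, by limma, 0 to 11 rises and 0 to 7 falls, against 6 and 2 with all, and 3 to 3395 rises and 8 to 3012 falls over all tested genes, the largest counts being those without TPR-FGFR1 replicate 3. Both pseudocounts, median-of-ratios scaling and quantile normalization kept all 8 calls. The filter at 5 TPM removed Ulk2 and called Wdfy3 lower. Without a filter, the autophagy genes had 0 rises and the same 2 falls, and all tested genes 620 rises and 526 falls. Without the trend, 3 autophagy genes rose, and Gabarap, Gabarapl1 and Tax1bp1 lost their calls, with 1159 rises and 1162 falls over all tested genes. With arrayWeights, 14 rose and 10 fell, with 5138 rises and 4143 falls over all tested genes. With GC and length correction, 7 rose and 5 fell, with 2052 rises and 1934 falls over all tested genes. The same correction without TPR-FGFR1 replicate 3 gave 10 rises and 6 falls, with 2517 and 2385 over all tested genes. The cause of these shifts was not tested.

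Same-numbered libraries of the groups share only a number. Their deviations from the group means correlated at −0.193, −0.0750 and −0.153 for replicates 1, 2 and 3. With the replicate block, 0 autophagy genes rose and 1 fell (Atg13), with 343 rises and 421 falls over all tested genes. The block together with GC and length correction gave 4 rises and 3 falls, with 1230 and 1143 over all tested genes.

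The 8 called genes kept their direction, and an unadjusted limma p under 0.05, in every alternative that tested them. Each alternative reuses the libraries on which these genes were called, so this is no independent support for the calls. Reversals were seen only in genes that were not called. With GC and length correction, alone or with the replicate block, the log2 fold changes of Ulk1, Atg9a, Atg2a, Tmem41b, Atg4d, Nbr1 and Calcoco1 were 0.084, 0.19, 0.11, −0.16, 0.12, −0.010 and 0.19. With that correction and without TPR-FGFR1 replicate 3, those of Ulk1, Becn1, Atg9a, Tmem41b, Atg4d, Nbr1 and Calcoco1 were 0.15, −0.083, 0.22, −0.21, 0.22, −0.0066 and 0.24, and the last was called (limma adjusted p = 0.0382). With arrayWeights, Becn1, Atg2b, Atg4d and Atg16l1 were at −0.011, 0.0054, 0.11 and 0.035. With quantile normalization Pik3c3 and Atg4d were at 0.034 and 0.0038, and with median-of-ratios scaling Tmem41b was at −0.027. Leaving out each library gave log2 fold changes of −0.027 to 0.015 for Pik3c3, −0.030 to 0.28 for Uvrag, −0.18 to 0.030 for Atg9a, −0.048 to 0.022 for Atg2b, −0.057 to 0.045 for Tmem41b, −0.24 to 0.038 for Atg3 and −0.13 to 0.030 for Atg16l1.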
